A study of Mus musculus with 9 samples.

Results

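The collagen chain genes are the genes whose mouse symbol has the form Col, a number, the letter a and a number, such as Col1a1. They were found by symbol among the 21930 Ensembl identifiers of a gene expression table of mouse nasal mucosa, and 44 chains were present. Poly(A) RNA was sequenced in 9 libraries from WT mice, 3 in each of 3 groups. In the papain+MSC-Exos group (below, the exosome group), papain, a plant cysteine protease, was put into the nose at 20 µg in 20 µl of PBS on days 0 to 2 and 7 to 11, and exosomes of mesenchymal stem cells were given by the same route on days 7 to 11. The papain group, the study's model of eosinophilic chronic rhinosinusitis, had the same papain course. The control group is labelled as having no treatment. Mucosa was collected on day 12 in every group. Strain, age and the source of the exosomes are not given in the labels. Whether each library is a separate mouse is not stated either, so p-values cover only the variation among these 9 libraries, part or all of which could be technical.

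Collagens are secreted or membrane proteins whose α chains wind around each other into a helix. Fibrillar collagens, above all types I and III, form the load-bearing fibrils of bone and of the connective tissue under the epithelium. Type IV forms the sheet of the basement membrane, type VII anchors it to the stroma below, type VI makes beaded filaments around cells, the fibril-associated collagens decorate fibril surfaces, and types II, IX, X and XI are best known from cartilage. In chronic sinus disease, collagen deposition and thickening of the basement membrane are part of what is called tissue remodelling, which the study's title names as its subject. The comparisons below ask how the transcripts of the chains differed between the groups. They concern RNA and not the protein laid down in the tissue.

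Levels are given in FPKM, a fragment count corrected for transcript length and library size, as deposited. Where named as scaled, FPKM were divided by a factor for each library, the median ratio of its genes to their mean over all libraries. Both are given because a few secretory genes took unequal shares of the libraries. The 15 highest genes held 38.2, 45.5 and 64.3% of all FPKM in exosome libraries 1 to 3, 64.7, 77.8 and 68.0% in papain libraries 1 to 3, and 78.4, 77.0 and 78.6% in the controls. The scaling factors were 1.75, 1.60 and 1.18 in the exosome libraries, 1.07, 0.710 and 0.971 in the papain libraries and 0.764, 0.763 and 0.765 in the controls. Papain library 2 thus had the scale of the controls, and exosome library 3 lay nearer the papain libraries. Among the 32 chains that passed the filter (at least 1 FPKM in at least 3 libraries), exosome library 3 was the lowest of its group in 28 and papain library 2 the lowest of its group in 29. After scaling, with 30 chains past the filter, the counts were 16 and 14. The number of fragments per library is not given, and it could not be read from the values, since 15.8 to 20.2% of the low values in a library lay within 0.05 of a whole multiple of their commonest step. Changes are differences of log2(FPKM + 1), with their SE, and understate the change of low chains. They were tested with limma over all genes past the filter, with Benjamini-Hochberg adjustment, and a chain is said to rise or fall where the adjusted p was under 0.05. Whether a lower value means fewer cells of a type or less RNA per cell cannot be told apart in bulk tissue.

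The chains covered a wide range of levels, and the fibrillar ones dominated. Col1a2 and Col1a1, the α2 and α1 chains of type I collagen, averaged over 100 FPKM, 2 others (Col3a1 and Col5a2) lay between 10 and 100 FPKM, 26 between 1 and 10, and 14 below 1. The type I chains and Col3a1 together made up 79.9, 77.7 and 64.9% of all collagen FPKM in the exosome libraries, 79.1, 75.4 and 72.8% in the papain libraries and 71.7, 78.6 and 79.0% in the control libraries. These shares overlapped between all 3 groups. The 12 chains below the filter lay between 0 and 1.08 FPKM in every library. They were Col2a1, the chain of type II cartilage collagen, Col5a3, the type IV chains Col4a3, Col4a4 and Col4a6, the type VI chains Col6a4, Col6a5 and Col6a6, and Col19a1, Col20a1, Col25a1 and Col28a1. Col19a1 was listed at 0 in 6 of the 9 libraries.

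**Figure D1:**
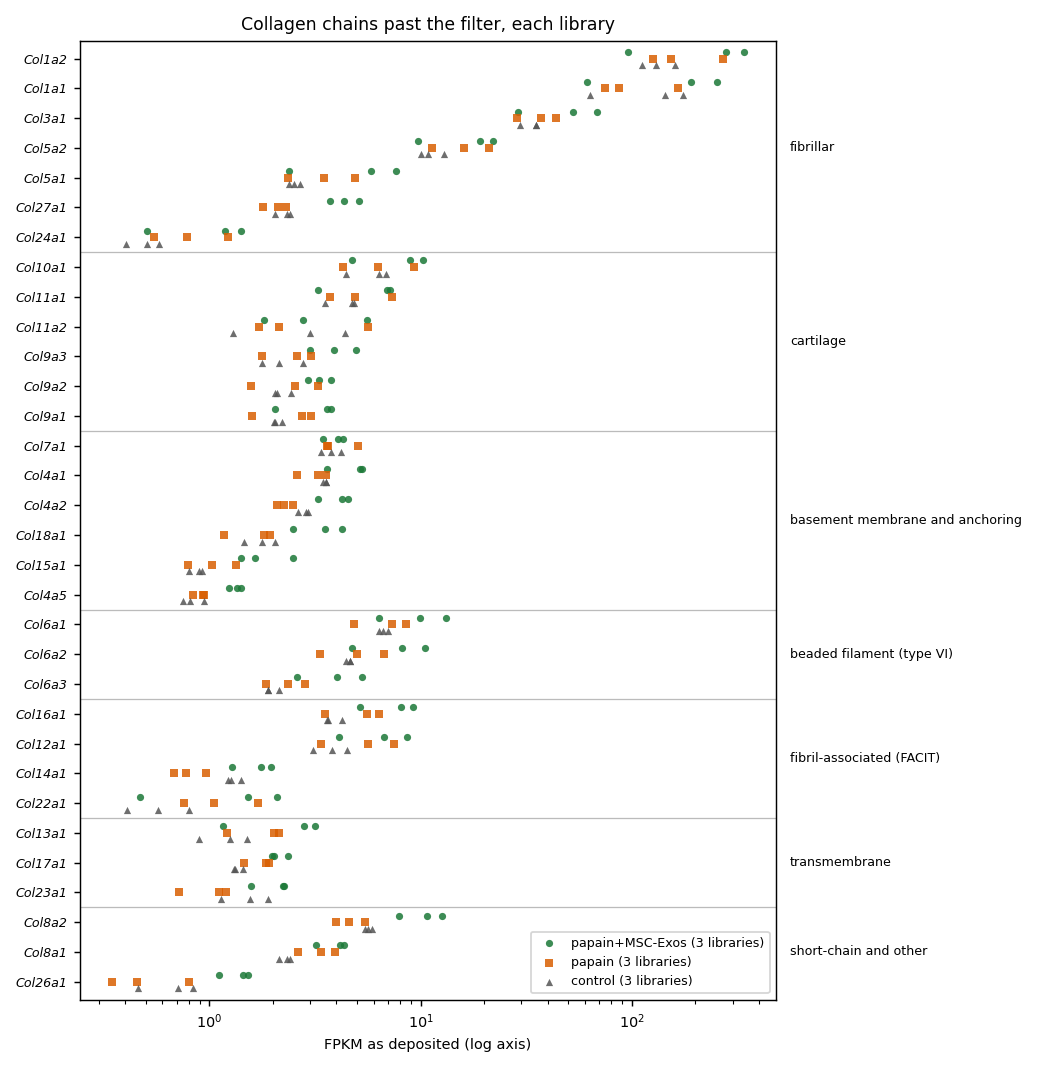
FPKM as deposited on a log axis for each of the 32 chains past the filter, grouped by kind of collagen, with 1 point per library (green circles papain+MSC-Exos, orange squares papain, grey triangles control). Col1a2 and Col1a1 lie to the right at mean levels over 100 FPKM, while most other chains lie between 1 and 10 FPKM.

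In the papain group against control, no chain passed the test on the deposited values, in either direction. Over all genes tested 3.01% rose and 0.518% fell, and 1 chain (Col14a1) had an unadjusted p under 0.05. After scaling, none of the 30 chains rose (5.77% of all genes tested rose), while 5 fell (4.15% of all genes tested fell). These were Col14a1, Col8a2, Col4a1, Col4a2 and Col23a1. For each of them all scaled papain values lay below all control values. The 2 groups did not overlap after scaling for 7 chains that were lower in papain, where 14.7% of all genes were, and for 2 that were higher, where 15.8% were. As deposited, the counts were 2 lower and 2 higher, where 2.42% and 20.7% of all genes were. The median change of the chains was 0.10 on the deposited and -0.09 on the scaled values, beside 0.19 and 0.00 for all genes tested. Without papain library 2 and exosome library 3, the deposited values gave 11 chains that rose and none that fell, and the scaled values gave none that rose and 4 that fell. That fit was added after the data had been seen. The share of all genes that rose in it is not given, so the 11 rises are not read as particular to the chains. Papain library 2 had a scaling factor of 0.710, beside 1.07 and 0.971 in the other papain libraries. The scaled count of falls was 1 without control library 2 or control library 3, and 2 without papain library 1 or papain library 3. Shares of all genes are not given for these fits either, and their counts are not read as particular to the chains.

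In the exosome group against papain, 11 of 32 chains rose on the deposited values and none fell, where 63% of all genes tested rose and 0.73% fell. Col8a2 and Col27a1 had the largest of these changes, followed by Col18a1, Col26a1, Col4a2, Col23a1, Col14a1, Col6a3, Col9a3, Col15a1 and Col4a1. Of these, Col26a1 passed the filter only through the exosome libraries, where it was high. After scaling, Col8a2 was the only chain of 30 that rose, where 13.4% of genes rose, and Col8a1, Col5a2, Col11a1 and Col17a1 fell, where 16.2% fell. The median change of the chains was 0.39 on the deposited values, below the 0.56 of all genes, and -0.19 after scaling, beside -0.01 for all genes. Groups did not overlap for 11 chains that were higher in exosomes as deposited, where 57.5% of genes were, and for none that was lower, where 0.816% were. After scaling they did not overlap for 4 higher chains (21.1% of genes) and 4 lower chains (23.8% of genes). The count on the deposited values depended on single libraries. It was 19 when exosome library 3 was left out, 6 when either of the other exosome libraries was, and 7 without papain library 2. After scaling, the count of falls was 2 without control library 2, control library 3, papain library 2, papain library 3 or exosome library 1, and the rise of Col8a2 was lost when exosome library 1 or 2 was left out. Without exosome library 3 and papain library 2 together, 16 rose on the deposited values, and 1 rose and 3 fell after scaling. Shares of all genes are not given for the fits with libraries left out, so these counts are not read as particular to the chains.

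In the exosome group against control, 19 of 32 chains rose on the deposited values, where 84.3% of all genes rose, and none fell, where 0.526% did. Among the 19, Col26a1 and Col4a5 passed the filter only through the exosome libraries, where they were high. The median change was 0.49 for the chains and 0.76 for all genes, and 1 of 32 chains (Col16a1) lay above that median. After scaling none rose, where 12.3% of genes did, and 6 fell, where 15.6% did: Col4a1, Col14a1, Col6a1, Col4a2, Col11a1 and Col3a1. The scaled median of the chains was -0.24 beside 0.01 for all genes, and 2 of 30 chains lay above it. As deposited, 15 chains were higher in every exosome library than in every control, where 87.5% of genes were, and none was lower in every one, where 0.589% were. After scaling 12 chains were lower without overlap (23.9% of genes) and none was higher (23% of genes). With single libraries left out, the deposited count was 10 for control library 1 and for control library 2, 9 for exosome library 1 and 7 for exosome library 2. The scaled count of falls was 2 when control library 2 or 3 was left out and 3 when exosome library 1 or 2 was. Without the shares of all genes in these fits, their counts are not read as particular to the chains. This comparison shares its control libraries with the comparison of papain and its exosome libraries with the one above, so the 3 sets of changes are not independent.

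**Figure D2:**
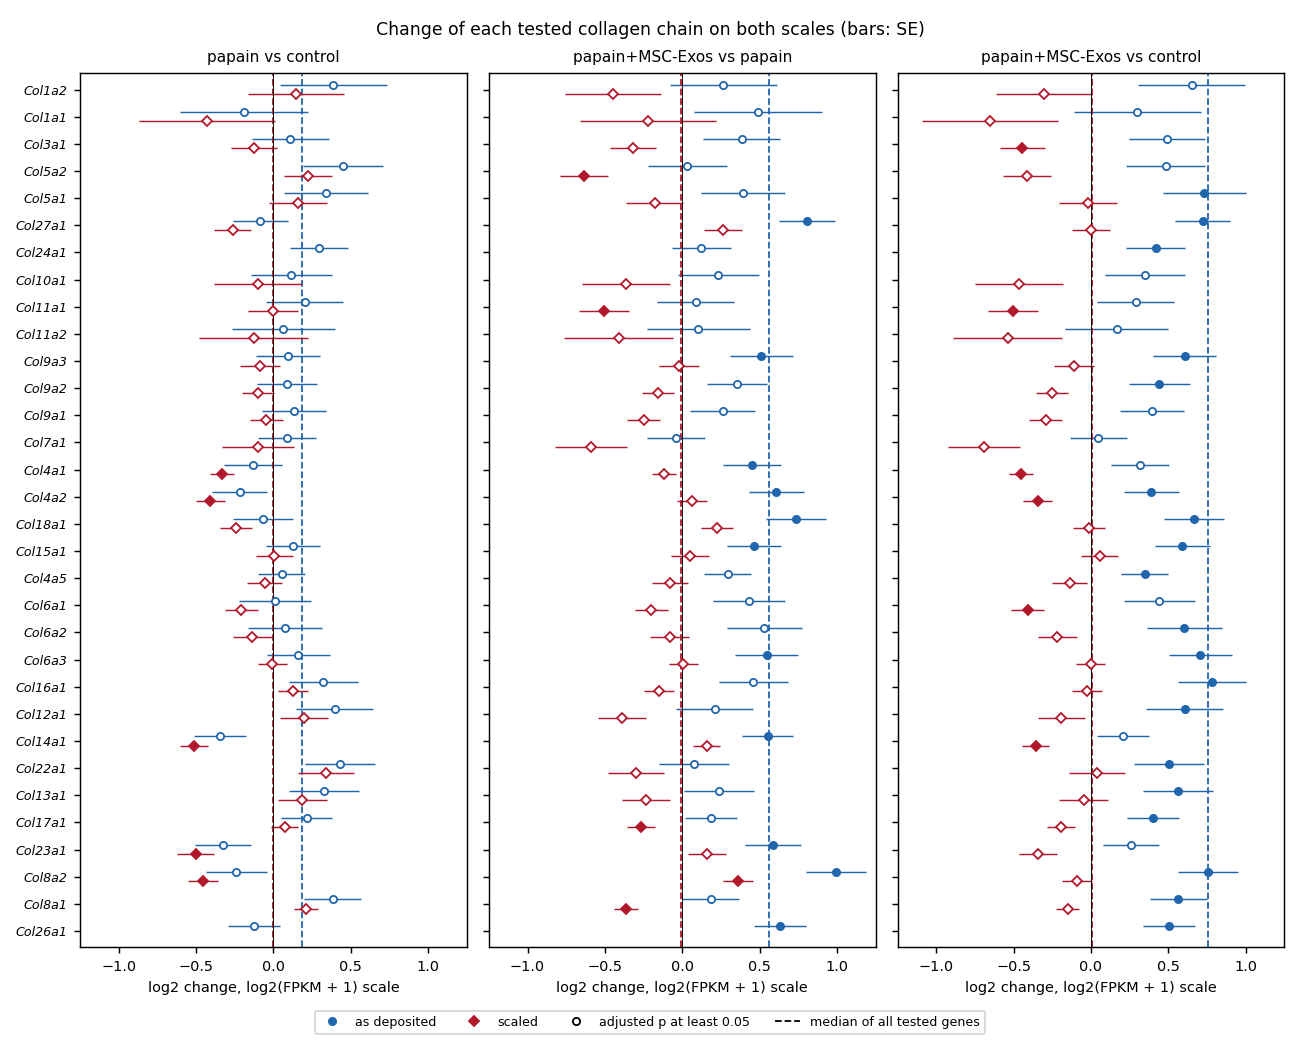
Log2 change (log2(FPKM + 1) scale, bars SE) of each tested chain in the 3 comparisons, as deposited (blue circles) and scaled (red diamonds), filled where the adjusted p was under 0.05, with dashed lines at the median of all genes tested. The blue points of the exosome comparisons mostly lie right of 0 but left of their dashed line, and the filled red points lie left of 0 except Col8a2 in exosomes against papain.

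Type VIII collagen, a short-chain collagen that builds open networks in vessel walls and under some epithelia, has the chains Col8a1 and Col8a2, and these moved in opposite directions between the exosome and papain groups after scaling. Their promoter windows are printed because they are the pair of the set with opposite calls. They are the bases before the annotated start of each gene, from RefSeq on GRCm38.p6, in the direction of transcription, without bases annotated as UTR. Capitals mark GGGCGG or its complement CCGCCC, the core of the GC box that Sp1 can bind, with overlapping copies counted separately. Col8a2 is at chr4:126286544-126286792 (plus strand) and Col8a1 at chr16:57754738-57754987 (minus strand).
Col8a2: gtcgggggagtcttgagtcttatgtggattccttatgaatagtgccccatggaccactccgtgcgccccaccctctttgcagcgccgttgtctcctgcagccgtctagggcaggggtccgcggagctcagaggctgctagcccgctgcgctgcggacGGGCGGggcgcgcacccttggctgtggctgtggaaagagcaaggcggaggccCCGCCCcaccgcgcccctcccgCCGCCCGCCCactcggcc
Col8a1: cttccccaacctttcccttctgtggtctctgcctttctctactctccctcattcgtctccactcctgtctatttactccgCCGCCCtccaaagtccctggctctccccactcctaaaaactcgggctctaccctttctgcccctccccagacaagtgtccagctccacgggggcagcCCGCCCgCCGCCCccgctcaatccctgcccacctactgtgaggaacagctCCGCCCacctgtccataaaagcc
Each window held 4 copies of the GC box core on either strand, and neither held CCAAT or TATAAA on either strand. Over the whole 250 bases before the start, bases annotated as UTR included, 22 of 38 windows of 35 chains in the RefSeq table held the GC box core, 13 CCAAT and 5 TATAAA, beside 32.7, 33.8 and 12.4% of 32851 windows of all genes over the same bases. These are letters in a window and are not described as sites.

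Col8a2 (gene at chr4:126286793-126314330 on GRCm38, as are the gene coordinates below) had 12.6, 10.7 and 7.90 FPKM in the exosome libraries, 4.57, 3.99 and 5.47 in the papain libraries and 5.46, 5.87 and 5.66 in the controls. All exosome libraries lay above all others, and the papain and control values overlapped slightly. In exosomes against papain it rose by 0.99 ± 0.20 on the log2 scale (adjusted p = 0.000909). The scaled values were 7.24, 6.72 and 6.72 in the exosome libraries, 4.27, 5.62 and 5.63 in the papain libraries and 7.14, 7.70 and 7.40 in the controls. Here all papain libraries lay below all libraries of the other groups. The scaled change was -0.45 ± 0.10 in papain against control (adjusted p = 0.0176) and 0.36 ± 0.10 in exosomes against papain (adjusted p = 0.0215). Scaled exosome and control values differed by -0.09 (95% interval -0.31 to 0.12). Before scaling, the call in exosomes against papain held with each library left out in turn. The scaled call was lost without exosome library 1 (adjusted p = 0.079) or exosome library 2 (adjusted p = 0.0571), and the scaled call in papain against control without control library 2 (adjusted p = 0.0661) or control library 3 (adjusted p = 0.0627).

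Col8a1 (chr16:57624258-57754737) had 4.14, 4.33 and 3.19 FPKM in the exosome libraries, 3.94, 2.64 and 3.37 in the papain libraries and 2.34, 2.13 and 2.40 in the controls. All exosome and papain libraries lay above all controls on this scale. The change was 0.56 ± 0.19 in exosomes against control (adjusted p = 0.00925, and 0.0544 without exosome library 2) and 0.38 ± 0.19 in papain against control (adjusted p = 0.304). After scaling, the exosome libraries had 2.37, 2.71 and 2.71, the papain libraries 3.68, 3.71 and 3.47 and the controls 3.06, 2.79 and 3.13. The 3 groups did not overlap, with papain highest and exosomes lowest. Exosomes against papain gave -0.36 ± 0.08 (adjusted p = 0.00901), and this call held with each library left out. Papain against control gave 0.21 ± 0.08 (adjusted p = 0.112). Col26a1, a small collagen first described in gonads, had 1.45, 1.52 and 1.12 FPKM in the exosome libraries, at most 0.798 in papain and at most 0.837 in control. It rose in both exosome comparisons on the deposited values (0.63 ± 0.17, adjusted p = 0.00454 against papain; against control the call was lost without control library 1, adjusted p = 0.0611) and was below the filter after scaling.

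The ubiquitous basement membrane chains Col4a1 and Col4a2, which assemble with each other, lie head to head on chromosome 8 and their annotated 5′ ends overlap (Col4a1 at chr8:11198423-11312826 on the minus strand, Col4a2 at chr8:11312805-11449287 on the plus strand), so reads in that short stretch could be assigned to either. Col4a1 had 5.30, 5.17 and 3.60 FPKM in the exosome libraries, 3.28, 2.61 and 3.55 in the papain libraries and 3.46, 3.58 and 3.56 in the controls. The exosome libraries lay above the rest, library 3 by a small margin, and the rise against papain was lost when any 1 library other than exosome library 3 was left out (adjusted p = 0.0525 to 0.169). Scaled, Col4a1 had 3.04, 3.24 and 3.06 in the exosome libraries, 3.07, 3.67 and 3.66 in the papain libraries and 4.52, 4.69 and 4.65 in the controls, so that all controls were above all libraries of the other groups. It fell by 0.45 ± 0.08 in exosomes against control (adjusted p = 0.00437), a call that held with each library left out. It fell by 0.33 ± 0.08 in papain against control (adjusted p = 0.0245), which was lost without any 1 of control libraries 1, 2 and 3 and papain libraries 1 and 3 (adjusted p = 0.0542 to 0.0797).

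Col4a2 followed its partner on the scaled values, with 2.60, 2.67 and 2.78 in the exosome libraries, 2.12, 2.95 and 2.55 in the papain libraries and 3.43, 3.85 and 3.75 in the controls. Every control again lay above every other library. The change was -0.41 ± 0.09 in papain against control (adjusted p = 0.0251) and -0.34 ± 0.09 in exosomes against control (adjusted p = 0.0254). The first was lost without control libraries 2 or 3 or papain libraries 1 or 3, and the second without control libraries 2 or 3 or exosome libraries 1 or 2 (adjusted p = 0.0513 to 0.0876 over these). With the values as deposited, Col4a2 had 4.53, 4.26 and 3.27 FPKM in the exosome libraries, 2.26, 2.09 and 2.48 in papain and 2.63, 2.93 and 2.87 in control, and it rose in exosomes against papain by 0.61 ± 0.18 (adjusted p = 0.00779). Its deposited rise against control was lost without any 1 of control libraries 1, 2 and 3, papain libraries 1 and 3 and exosome libraries 1 and 2 (adjusted p = 0.0556 to 0.157). The ratio of Col4a1 to Col4a2, which does not depend on the scale of a library, was 1.17, 1.21 and 1.10 in the exosome libraries, 1.45, 1.25 and 1.43 in the papain libraries and 1.32, 1.22 and 1.24 in the controls. The exosome ratios lay below all others, but the exact permutation test can give no p under 0.1 with 3 libraries against 3, and p was 0.1 for both exosome comparisons (0.6 after adjustment over 18 ratio tests).

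Endothelial cells are a main source of type IV chains, and their 8 markers, none at 0 in all libraries, had a scaled sum of 12.7 to 15.7 in the exosome libraries, 15.5 to 17.6 in the papain libraries and 20.1 to 22.3 in the controls. Of 6 tested, 3 fell and none rose in exosomes against control, and 1 fell in papain against control, where 15.6% and 4.15% of all genes fell. On the deposited values 2 of 7 rose and none fell in exosomes against control, where 84.3% of all genes rose. The scaled sum was lower in both other groups than in control, as were scaled Col4a1 and Col4a2. Between exosomes and papain the scaled values of Col4a2 overlapped, and Col4a5 had no scaled call in any comparison. The part of these markers in the falls of the chains was not tested. Of the other basement membrane proteins, Nid1, the linker nidogen, fell after scaling in exosomes against control (-0.46 ± 0.08, adjusted p = 0.00557) and in papain against control (-0.31 ± 0.08, adjusted p = 0.0432). The fall of Nid1 in papain against control was lost whichever 1 of the 9 libraries was left out (adjusted p = 0.0532 to 0.14). In all, of the 9 such genes tested after scaling, 2 rose and 1 fell in exosomes against control, 1 rose and none fell in exosomes against papain (Agrn, the proteoglycan agrin, 0.40 ± 0.09, adjusted p = 0.0126, and 0.0502 without exosome library 2), and none rose and 1 fell in papain against control. Over all genes, in the same order, 12.3% rose and 15.6% fell, 13.4% rose and 16.2% fell, and 5.77% rose and 4.15% fell.

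Other chains of the basement membrane zone gave fewer calls. Col18a1, which carries the endostatin fragment, had 4.26, 3.52 and 2.49 FPKM in the exosome libraries, 1.81, 1.17 and 1.94 in the papain libraries and 1.46, 2.05 and 1.77 in the controls. The exosome libraries were above all others, and it rose by 0.73 ± 0.19 against papain (adjusted p = 0.00458) and 0.67 ± 0.19 against control (adjusted p = 0.00459). After scaling these changes were 0.23 ± 0.10 (adjusted p = 0.123) and -0.02 ± 0.10 (adjusted p = 0.924). Col15a1, its close relative, and Col4a5, a chain of specialised basement membranes, likewise rose in exosomes against control on the deposited values only. Col4a5 had 1.35, 1.42 and 1.23 FPKM in the exosome libraries, 0.931, 0.939 and 0.839 in papain and 0.944, 0.807 and 0.754 in control. On these values it passed the filter only through the exosome libraries, so its rise is no independent support. The call for Col4a5 was lost without any 1 control library, papain library 1 or papain library 3 (adjusted p = 0.0512 to 0.14). The rise of Col15a1 against papain was lost without papain library 2 (adjusted p = 0.106) or exosome library 1 (adjusted p = 0.172). Col7a1, the anchoring fibril chain, had 3.44, 4.07 and 4.32 FPKM in the exosome libraries, 3.63, 5.08 and 3.60 in the papain libraries and 4.21, 3.36 and 3.76 in the controls. Among the 32 chains past the filter it was the one whose deposited change in exosomes against papain was lowest, at -0.04 ± 0.19, and its scaled change against control of -0.69 ± 0.23 missed the threshold (adjusted p = 0.0504). It was highest in papain library 2, whose other chains were mostly the lowest of their group.

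Of the fibril-associated chains, Col14a1 (chr15:55307750-55520803), which binds fibrils through decorin, had 1.75, 1.97 and 1.28 FPKM in the exosome libraries, 0.969, 0.681 and 0.778 in the papain libraries and 1.26, 1.41 and 1.22 in the controls. All papain libraries lay below all others, also after scaling, when the values were 1.002, 1.23 and 1.09 in exosomes, 0.906, 0.959 and 0.801 in papain and 1.65, 1.85 and 1.59 in control. It fell after scaling by 0.51 ± 0.09 in papain against control (adjusted p = 0.00681), which held with each library left out, and by 0.36 ± 0.09 in exosomes against control (adjusted p = 0.0172), which was lost without control library 2 (adjusted p = 0.0502) or exosome library 1 (adjusted p = 0.0705). As deposited, papain against control gave -0.35 ± 0.17 (adjusted p = 0.298), and exosomes against papain 0.55 ± 0.17 (adjusted p = 0.00887, and 0.0619 without exosome library 2). Col12a1, Col16a1 and Col22a1, which are also fibril-associated, had deposited changes of 0.40, 0.32 and 0.43 in papain against control, none past the threshold. In exosomes against control Col12a1 (0.61 ± 0.25, adjusted p = 0.0303) and Col22a1 (0.51 ± 0.23, adjusted p = 0.0452) rose as deposited, and both calls were lost without control library 1 or 2 or exosome library 1 or 2 (adjusted p = 0.0599 to 0.261). Their scaled changes there were -0.19 ± 0.15 and 0.04 ± 0.18. Col22a1, a chain of tissue junctions such as those of muscle and tendon, had 1.69, 0.762 and 1.06 FPKM in papain against 0.575, 0.410 and 0.805 in control, values that overlapped as deposited and not after scaling. Col16a1 had the largest deposited rise of all chains in exosomes against control, at 0.78 ± 0.22 (adjusted p = 0.00359), and a scaled change of -0.03 ± 0.10.

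**Figure D3:**
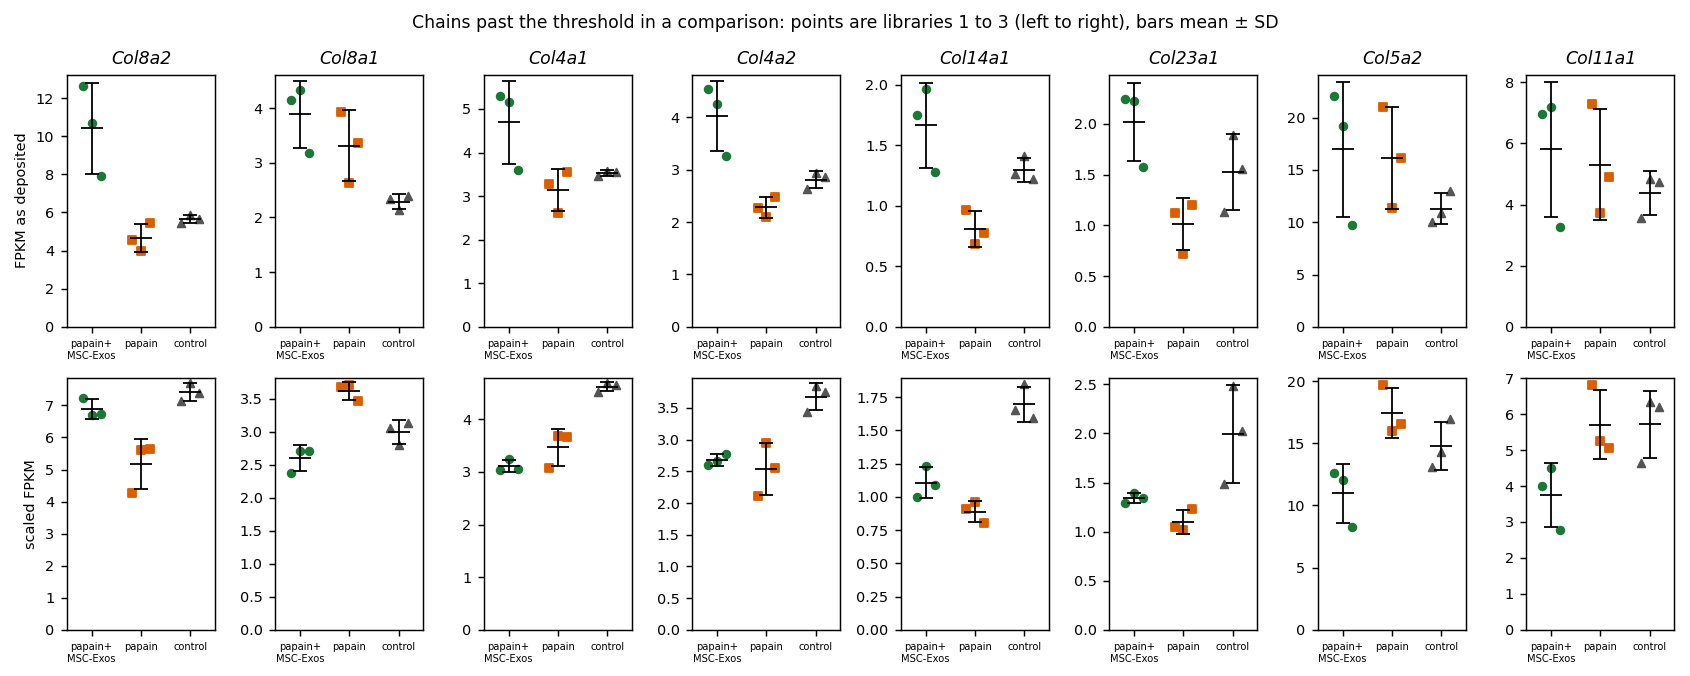
FPKM as deposited (upper row) and scaled FPKM (lower row) of 8 chains in each library, with mean and SD bars (n = 3 per group; papain+MSC-Exos left, papain centre, control right). After scaling the papain libraries of Col8a2 lie below and those of Col8a1 above both other groups, and the controls of Col4a1, Col4a2 and Col14a1 lie above all other libraries.

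Of 10 small leucine-rich proteoglycans and other fibril-binding proteins tested after scaling, 5 fell in papain against control, where 4.15% of all genes fell, 3 in exosomes against papain, where 16.2% fell, and 8 in exosomes against control, where 15.6% fell, and none rose. Dcn, decorin, had 129, 136 and 118 FPKM in the exosome libraries, 123.3, 85.7 and 104 in the papain libraries and 154, 142 and 170 in the controls. All controls were above all others on either scale, and its scaled change was -1.23 ± 0.12 in exosomes against control (adjusted p = 0.000643), -0.82 ± 0.12 in papain against control (adjusted p = 0.00378) and -0.41 ± 0.12 in exosomes against papain (adjusted p = 0.0358). The last of these was lost without control library 1, any 1 papain library or exosome library 1 or 2 (adjusted p = 0.0519 to 0.124). Ogn, osteoglycin, fell after scaling in exosomes against control (-0.97 ± 0.12, adjusted p = 0.00169) and in papain against control (-0.60 ± 0.12, adjusted p = 0.0158, and 0.0506 to 0.0657 without control library 2 or 3 or papain library 3). None of the 10 passed the test on the deposited values in papain against control, and on those values 3 rose in exosomes against papain and 2 in exosomes against control, with no fall, where 63% and 84.3% of all genes rose.

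The type VI chains Col6a1 and Col6a2 lie near each other on chromosome 10 and join Col6a3 in the common form of beaded filaments. Col6a1 had 13.2, 9.89 and 6.35 FPKM in the exosome libraries, 8.49, 4.83 and 7.35 in the papain libraries and 6.68, 6.37 and 6.99 in the controls, and the groups overlapped. After scaling it had 7.54, 6.20 and 5.40 in exosomes, 7.95, 6.80 and 7.57 in papain and 8.73, 8.35 and 9.14 in control, with the controls above all others, and it fell by 0.41 ± 0.11 in exosomes against control (adjusted p = 0.0215). That call was lost without control library 1 (adjusted p = 0.0578), control library 3 (adjusted p = 0.0714) or exosome library 2 (adjusted p = 0.0641). Col6a2 and Col6a3 had scaled changes of -0.22 ± 0.13 and 0.00 ± 0.09 in that comparison. On the deposited values both rose there, by 0.60 ± 0.24 (adjusted p = 0.0267) and 0.71 ± 0.20 (adjusted p = 0.00426), where 84.3% of all genes rose. The rise of Col6a2 was lost without control library 1 or 2 or exosome library 1 or 2 (adjusted p = 0.0505 to 0.159). Before scaling, Col6a3 rose in exosomes against papain, a call lost without papain library 2 or 3 or exosome library 1 or 2 (adjusted p = 0.0563 to 0.163). A further type VI chain described here lay below the filter. Col6a5 (chr9:105856078-105960643), an alternative partner in place of Col6a3 that is best known from skin, is singled out here after its values were seen. It had 0.253, 0.156 and 0.177 FPKM in the exosome libraries, 0.426, 0.404 and 0.431 in the papain libraries and 0.149, 0.146 and 0.215 in the controls. The papain libraries were above all others, as they were after scaling, at 0.398, 0.568 and 0.444 beside 0.145, 0.0977 and 0.15 in exosomes and 0.195, 0.191 and 0.281 in control. The number of fragments behind these low levels is unknown.

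With no filter on low values, all 44 chains entered the test, and Col6a5 was the only one that rose in papain against control on either scale (0.28 ± 0.04, adjusted p = 0.0243, as deposited, where 0.835% of all genes rose, and 0.27 ± 0.05, adjusted p = 0.0222, scaled, where 3.52% did). In exosomes against papain it was the only chain that fell on the deposited values (-0.25 ± 0.04, adjusted p = 0.0102, where 0.583% of genes fell). After scaling 3 of the 44 chains fell there, where 8.71% of genes did, and Col6a5 fell by 0.38 ± 0.05 (adjusted p = 0.00643). These counts rest on few chains and are not read as a result about the chains. The values of Col6a5 are description of a chain picked after they were seen. With a pseudocount of 0.1 in place of 1, which understates a low gene less, the change in exosomes against papain was -0.83 ± 0.23 (adjusted p = 0.0193) as deposited and -1.30 ± 0.20 (adjusted p = 0.00699) scaled. In papain against control it was 0.95 ± 0.23 (adjusted p = 0.074) and 0.82 ± 0.20 (adjusted p = 0.0463). With each library left out in turn, a fit added after the data had been seen, the call in exosomes against papain held in 9 of 9 fits on both scales. The call in papain against control held in 4 of 9 fits as deposited and 6 of 9 scaled. It was lost on both scales without control library 1, control library 2 or papain library 3, and as deposited also without control library 3 or papain library 1 (adjusted p = 0.059 to 0.146 over these). Exosomes against control gave 0.03 ± 0.04 as deposited and -0.11 ± 0.05 scaled (adjusted p = 0.58 and 0.179).

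The transmembrane chains did not move as a group. Col23a1 has a promoter window with 1 GC box core, in capitals, at chr11:51289670-51289919 (plus strand, RefSeq, GRCm38.p6), printed as that of a chain called in papain against control with fewer copies than Col8a2.
Col23a1: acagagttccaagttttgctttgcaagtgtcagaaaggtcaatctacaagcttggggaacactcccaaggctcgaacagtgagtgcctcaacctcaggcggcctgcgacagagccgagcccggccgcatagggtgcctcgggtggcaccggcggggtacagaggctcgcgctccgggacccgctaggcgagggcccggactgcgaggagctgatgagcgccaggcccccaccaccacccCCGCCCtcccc
Col23a1 had 2.25, 2.23 and 1.58 FPKM in the exosome libraries, 1.12, 0.718 and 1.20 in the papain libraries and 1.13, 1.89 and 1.55 in the controls. The papain libraries lay below the exosome libraries and overlapped the controls. After scaling the values were 1.29, 1.40 and 1.34 in exosomes, 1.05, 1.012 and 1.23 in papain and 1.48, 2.48 and 2.03 in control, with no overlap between groups. It fell after scaling by 0.50 ± 0.12 in papain against control (adjusted p = 0.0288), which was lost without control library 2 or control library 3 and without any papain library (adjusted p = 0.0602 to 0.094), and also without papain library 2 and exosome library 3 together (adjusted p = 0.0773). Exosomes against papain gave 0.59 ± 0.18 (adjusted p = 0.0105) as deposited and 0.16 ± 0.12 (adjusted p = 0.339) scaled.

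Col17a1, the hemidesmosome collagen of basal keratinocytes, had 2.35, 2.01 and 1.97 FPKM in the exosome libraries, 1.92, 1.45 and 1.85 in the papain libraries and 1.31, 1.32 and 1.44 in the controls. The groups did not overlap as deposited, with exosomes highest and controls lowest. It rose in exosomes against control by 0.40 ± 0.17 (adjusted p = 0.0313), which was lost without any 1 control library, exosome library 1 or exosome library 2 (adjusted p = 0.07 to 0.0983). After scaling, exosomes had 1.35, 1.26 and 1.68, papain 1.79, 2.05 and 1.91 and control 1.71, 1.73 and 1.88, and the fall of 0.27 ± 0.09 in exosomes against papain lay at the threshold (adjusted p = 0.0495). It was lost when any 1 library other than exosome library 3 was left out (adjusted p = 0.0575 to 0.164). The 8 basal epithelial markers, a list that holds Col17a1 itself, had a deposited FPKM sum of 121 to 144 in exosomes, 87.1 to 100.5 in papain and 42.3 to 68.3 in control. After scaling the sums were 78.1 to 103 in exosomes, 89.7 to 131 in papain and 55.4 to 89.3 in control. In exosomes against papain, 4 of the markers rose and 1 fell as deposited, where 63% and 0.73% of all genes did. After scaling 1 rose and 3 fell, where 13.4% and 16.2% did. Their part in the level of Col17a1 was not tested. Col13a1, found at cell contacts and the neuromuscular junction, rose in exosomes against control on the deposited values only (0.56 ± 0.23, adjusted p = 0.0281), a call lost without control library 2, exosome library 1 or exosome library 2 (adjusted p = 0.0981 to 0.147).

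The fibrillar chains carried most of the collagen RNA and gave few calls. Col1a1 (chr11:94936224-94953042) had 254, 192 and 61.2 FPKM in the exosome libraries, 165, 74.6 and 86.7 in the papain libraries and 63.4, 175 and 143 in the controls. Col1a2 (chr6:4504814-4541544) had 341, 278 and 95.4 FPKM in exosomes, 269, 127 and 153 in papain and 111, 131 and 160 in control. The groups overlapped for both chains, and libraries of 1 group differed by up to several fold. Papain against control gave -0.19 (95% interval -1.05 to 0.67) for Col1a1 and 0.39 (-0.34 to 1.11) for Col1a2 on the deposited values. Exosomes against papain gave 0.49 (-0.37 to 1.35) and 0.26 (-0.46 to 0.98). After scaling, exosomes against papain gave -0.22 (-1.20 to 0.76) and -0.45 (-1.14 to 0.24). The Col1a1 intervals include changes of 2-fold on the log2(FPKM + 1) scale, so a difference of that size is not excluded.

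The ratio of Col1a1 to Col1a2 was 0.745, 0.689 and 0.641 in the exosome libraries, 0.612, 0.590 and 0.566 in the papain libraries and 0.570, 1.34 and 0.893 in the controls. The exosome ratios lay above the papain ratios, by 0.23 on the log2 scale (exact permutation test, p = 0.1, the smallest it can give, and 0.6 after adjustment). The exosome ratios lay within the range of the controls, and the papain ratios lay near its lower end, library 3 just below it. The ratio of Col3a1 to Col1a1 and the ratios of the summed basement membrane or cartilage chains to the summed fibrillar chains overlapped in all comparisons (exact permutation p = 0.6 to 1).

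Type I chains are also the main collagen of bone, and markers of bone cells were high in these libraries. Bglap, osteocalcin, had 115, 74.7 and 36.5 FPKM in the exosome libraries, 97.0, 55.0 and 79.8 in the papain libraries and 54.9, 189 and 185 in the controls. Exosome library 3, papain library 2 and control library 1 were the lowest of their groups for Bglap and also for Col1a1. Ibsp, bone sialoprotein, had 104, 69.7 and 28.2 FPKM in exosomes, 90.9, 36.7 and 49.2 in papain and 16.8, 17.04 and 19.7 in control, and it rose in papain against control by 1.57 ± 0.34 (adjusted p = 0.0107) and, scaled, by 1.34 ± 0.30 (adjusted p = 0.0206, and 0.06 to 0.0707 without any 1 control library). Of the 8 bone markers, Ibsp and Dmp1 rose in papain against control on both scales and none fell. Over all genes 3.01% rose there as deposited and 5.77% scaled. After scaling, none rose and 2 fell in exosomes against papain, where 16.2% of all genes fell, and 1 rose and 2 fell in exosomes against control, where 12.3% rose and 15.6% fell. With the values as deposited, 1 rose and none fell in exosomes against papain, where 63% of all genes rose, and 6 rose and 1 fell in exosomes against control, where 84.3% rose and 0.526% fell. The rise against papain was that of Alpl, lost without papain library 2 or exosome library 1 (adjusted p = 0.0746 and 0.108). Bglap was the marker that fell, a call lost without control library 2 or 3 or exosome library 3 (adjusted p = 0.164 to 0.268). Its scaled fall there was lost without control library 3 (adjusted p = 0.0586). The summed FPKM of the 8 markers was 223 to 634 in exosomes, 265 to 634 in papain and 241 to 364 in control, and none was at 0 in all libraries. The scaled rise in exosomes against control was that of Dmp1. It was lost without any 1 control library, papain library 3 or exosome library 1 or 2 (adjusted p = 0.0622 to 0.143). The part of bone in the spread of the type I chains was not tested.

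**Figure D4:**
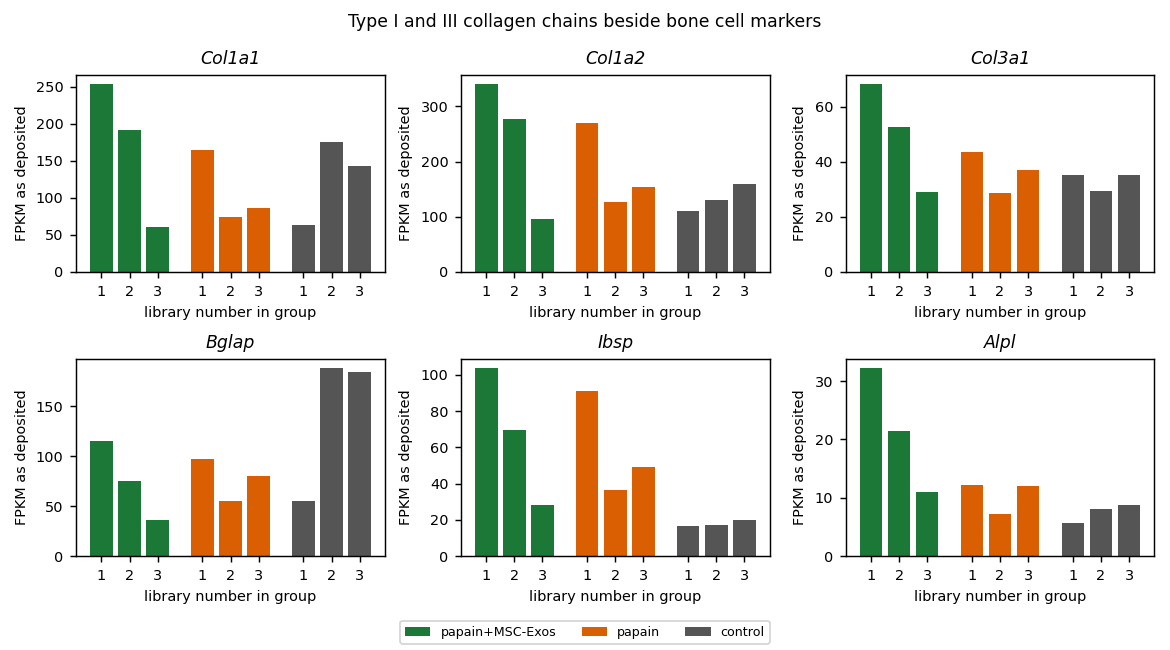
FPKM as deposited in each library for the type I and III chains (upper row) and the bone cell markers Bglap, Ibsp and Alpl (lower row), with bars for papain+MSC-Exos, papain and control libraries from left to right. Col1a1 and Bglap are lowest in exosome library 3, papain library 2 and control library 1 of their groups, while Ibsp lies at 16.8 to 19.7 FPKM in the controls and at 28.2 FPKM or more elsewhere.

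Col3a1 (chr1:45311538-45349706), the type III chain of pliable connective tissue and vessel walls, had 68.2, 52.7 and 29.0 FPKM in the exosome libraries, 43.6, 28.6 and 37.1 in the papain libraries and 35.3, 29.5 and 35.2 in the controls. All groups overlapped, and papain against control gave 0.11 (95% interval -0.41 to 0.63). Scaled, the values were 39.1, 33.0 and 24.7 in exosomes, 40.8, 40.2 and 38.2 in papain and 46.2, 38.6 and 46.1 in control, and the fall of 0.44 ± 0.15 in exosomes against control (adjusted p = 0.0491) lay at the threshold, with 1 exosome library above the lowest control. It was lost when any 1 library other than exosome library 1 was left out (adjusted p = 0.0508 to 0.138). Col5a2 (chr1:45374321-45503282), which nucleates fibrils with Col5a1 and lies next to Col3a1 on the opposite strand, had 22.1, 19.2 and 9.72 FPKM in exosomes, 21.1, 11.3 and 16.1 in papain and 10.02, 10.9 and 12.96 in control. These overlapped, and exosomes against papain gave 0.03 ± 0.26. After scaling it had 12.6, 12.0 and 8.26 in exosomes, 19.7, 15.97 and 16.6 in papain and 13.1, 14.3 and 16.9 in control. The exosome libraries then lay below all others, and it fell against papain by 0.64 ± 0.15 (adjusted p = 0.0152), a call that held with each library left out. Its partner Col5a1 had a scaled change of -0.18 ± 0.19 there.

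Col27a1 (chr4:63214004-63334991), a fibrillar chain of cartilage and many epithelia, was the fibrillar chain with the clearest deposited change. It had 5.12, 3.73 and 4.35 FPKM in the exosome libraries, 2.31, 1.80 and 2.12 in the papain libraries and 2.32, 2.41 and 2.05 in the controls. All exosome libraries were above all others, and it rose by 0.81 ± 0.18 against papain (adjusted p = 0.0017) and 0.72 ± 0.18 against control (adjusted p = 0.00145). After scaling these became 0.26 ± 0.12 (adjusted p = 0.128) and 0.00 ± 0.12 (adjusted p = 0.996). Col24a1, a minor fibrillar chain linked to bone, passed the filter only as deposited, at 1.42, 1.18 and 0.508 FPKM in exosomes, 1.23, 0.545 and 0.785 in papain and 0.405, 0.504 and 0.579 in control. It rose in exosomes against control by 0.42 ± 0.19 (adjusted p = 0.0452), a call lost without any 1 control library (adjusted p = 0.0589 to 0.116). Fibroblast markers, whose cells make most of these chains outside bone, were present at a deposited sum of 112 to 149 in exosomes, 75.0 to 105 in papain and 59.3 to 69.2 in control. None of the 8 was at 0 in all libraries, and after scaling the sums were 85.3 to 95.5 in exosomes, 94.7 to 106 in papain and 77.7 to 90.5 in control. Of 7 tested after scaling, 4 fell and none rose in exosomes against control, 1 fell and none rose in exosomes against papain, and 1 rose and 2 fell in papain against control, where 15.6, 16.2 and 4.15% of all genes fell. On the deposited values 4 rose in exosomes against control and 3 in exosomes against papain, where 84.3% and 63% of all genes rose, with no fall and no call in papain against control.

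Among the cartilage chains, Col11a1 had 6.96, 7.20 and 3.26 FPKM in the exosome libraries, 7.29, 3.73 and 4.91 in the papain libraries and 3.55, 4.83 and 4.73 in the controls, and all groups overlapped. Scaled, the exosome libraries (3.99, 4.51 and 2.77) lay below all papain (6.82, 5.26 and 5.05) and control libraries (4.64, 6.33 and 6.19). It fell by 0.50 ± 0.16 against papain (adjusted p = 0.0419) and 0.51 ± 0.16 against control (adjusted p = 0.0438). Against papain the call was lost when any 1 library other than control library 1 or exosome library 2 was left out (adjusted p = 0.0503 to 0.114), and against control without control library 2 or 3, papain library 3 or exosome library 1 or 3 (adjusted p = 0.0543 to 0.129). Cartilage cell markers moved the same way on this scale, with a summed level of 9.08 to 14.5 in exosomes, 15.5 to 19.8 in papain and 16.3 to 19.2 in control. Of 4 tested, 3 fell in exosomes against papain and 2 in exosomes against control, where 16.2% and 15.6% of all genes fell, and none rose. As deposited, none of 5 fell, while 1 rose in exosomes against papain and 3 in exosomes against control, where 63% and 84.3% of all genes rose. Their part in the change of Col11a1 was not tested. Col10a1, the marker of hypertrophic cartilage, ranged from 4.75 to 10.3 FPKM in exosomes, 4.29 to 9.31 in papain and 4.45 to 6.84 in control, with no call. Col11a2 varied most within groups, from 1.82 to 5.55, 1.73 to 5.61 and 1.30 to 4.39 FPKM in exosomes, papain and control, with no call. The type IX chains Col9a1, Col9a2 and Col9a3, which sit on cartilage fibrils, lay between 1.58 and 4.93 FPKM. Col9a3 rose in exosomes against papain (0.51 ± 0.20, adjusted p = 0.0359) on the deposited values only, and Col9a3 and Col9a2 in exosomes against control. Against papain the call for Col9a3 was lost without control library 1, papain library 2 or 3 or exosome library 1 or 2 (adjusted p = 0.0505 to 0.187). Against control it was lost without control library 3 or exosome library 2 (adjusted p = 0.0628 and 0.0757), and that for Col9a2 without any 1 control library, papain library 3, exosome library 1 or exosome library 2 (adjusted p = 0.0567 to 0.127). Col2a1, the chain that defines cartilage, had 1.08 FPKM in papain library 1 and 0.897 FPKM or less in the other libraries.

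The enzymes and carriers that make collagen were described beside the chains. Of 10 prolyl and lysyl hydroxylases and their partners tested, which modify the chains before they fold, none passed the test in papain against control on either scale. Over all genes 3.01% rose and 0.518% fell there as deposited, and 5.77% rose and 4.15% fell after scaling. The lack of calls is thus not read as stability of these genes. Before scaling, 6 of the 10 rose in exosomes against papain, where 63% of all genes rose, and 8 in exosomes against control, where 84.3% did. After scaling 1 fell in exosomes against papain (P4ha2, -0.28 ± 0.09, adjusted p = 0.0472, and 0.0558 to 0.153 without any 1 library other than exosome library 1) and 2 fell in exosomes against control, P3h1 and Crtap, which act in 1 complex (-0.45 ± 0.11, adjusted p = 0.0155, and -0.42 ± 0.11, adjusted p = 0.0217). The call for Crtap was lost without control library 2 or 3 or exosome library 1 or 2 (adjusted p = 0.0529 to 0.0656). After scaling 16.2% of all genes fell in exosomes against papain and 15.6% in exosomes against control. Of 7 folding and export genes, 3 fell and 1 rose after scaling in each exosome comparison, the same 4 genes in both. Over all genes 16.2% fell and 13.4% rose against papain, and 15.6% fell and 12.3% rose against control. The 2 comparisons share the exosome libraries, so calls of the same genes in both are not independent. Ppib, the cyclophilin of collagen folding, and Fkbp14 and Sec23a were those that fell, and Mia3, the TANGO1 cargo receptor, rose. Against papain, the fall of Fkbp14 was lost whichever 1 of the 9 libraries was left out (adjusted p = 0.0572 to 0.125), that of Sec23a without exosome library 1 or 2 (0.0571 and 0.0517), and the rise of Mia3 without papain library 2 or 3 or exosome library 1 or 3 (0.0519 to 0.0827). Against control, the fall of Sec23a was lost without any 1 control library or exosome library 1 or 2 (adjusted p = 0.0555 to 0.0902), and the rise of Mia3 without control library 1 or 3 or exosome library 1 (0.0544 to 0.0622). After scaling, Fkbp14 was the only 1 of the 7 that fell in papain against control (-0.46 ± 0.09, adjusted p = 0.0142, and 0.0536 to 0.061 without control library 2 or 3 or papain library 3).

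Of 8 tested genes of procollagen processing and cross-linking, Pcolce2, which enhances cleavage of the C-terminal propeptide, had 10.6, 14.1 and 5.45 FPKM in the exosome libraries, 4.98, 2.07 and 3.30 in the papain libraries and 6.66, 7.15 and 6.01 in the controls. The papain libraries lay below all others. It rose in exosomes against papain by 1.28 ± 0.27 (adjusted p = 0.00129) and, scaled, by 0.67 ± 0.20 (adjusted p = 0.0302, and 0.0742 to 0.0919 without papain library 2 or 3 or exosome library 1 or 2), and it fell, scaled, in papain against control by 1.06 ± 0.20 (adjusted p = 0.00967). Pcolce, its relative, was called in the same directions after scaling, but not without papain library 2 or 3 in either comparison, without exosome library 2 in the first or without control library 2 or 3 in the second (adjusted p = 0.0629 to 0.0894). Lox, the lysyl oxidase that cross-links fibrils, fell after scaling in exosomes against papain (-0.86 ± 0.19, adjusted p = 0.0106) and in exosomes against control (-0.99 ± 0.19, adjusted p = 0.00644), as did Loxl2 in the first of these, a call lost without papain library 1 or 3 or exosome library 2 or 3 (adjusted p = 0.0684 to 0.0807). In all, 2 rose and 2 fell in exosomes against papain after scaling, none rose and 1 fell in exosomes against control, and none rose and 2 fell in papain against control. Over all genes, in the same order, 13.4% rose and 16.2% fell, 12.3% rose and 15.6% fell, and 5.77% rose and 4.15% fell. Of 6 collagen receptors, Ddr1, a receptor kinase of epithelia, rose after scaling in exosomes against control (0.60 ± 0.12, adjusted p = 0.00803), and Itgb1, the common β1 integrin subunit, fell in both exosome comparisons (-0.44 ± 0.07, adjusted p = 0.00455, against papain). Against control the fall of Itgb1 was lost without control library 1 or 3 or exosome library 1 or 2 (adjusted p = 0.0757 to 0.112). None of the 6 receptors passed the test in papain against control on either scale. There 3.01% of all genes rose and 0.518% fell as deposited, and 5.77% rose and 4.15% fell after scaling.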

How the data were processed

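Poly(A) RNA of mouse nasal mucosa was sequenced in 9 libraries, 3 per group. The values deposited by the authors are FPKM per Ensembl gene. Per the submitters' processing notes, fastp 0.19.4, HISAT2 and StringTie were used with the mm10 build. The annotation and the strand setting are not stated there. FPKM hold no read counts, so count models were not used. StringTie can divide reads between overlapping genes in ways that cannot be traced here.

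Symbols were matched to GENCODE M21 (21817 of 21930 identifiers), which also gave coordinates, and promoter windows came from RefSeq. Differences were tested with limma 3.58.1 in R 4.3.3, on log2(FPKM + 1) of genes with at least 1 FPKM in at least 3 libraries, in 1 fit over all 9 libraries with a mean-variance trend, two-sided, with Benjamini-Hochberg adjustment over all genes. It was repeated on FPKM divided by median-of-ratios factors over the 16486 genes above 0 in every library, and tested on simulated data. Ratios within a library were compared with two-sided exact permutation tests computed with NumPy 2.4.6, with Benjamini-Hochberg adjustment over 18 tests. Alternatives were other pseudocounts, filters, scalings, a fit of 2 groups, a replicate block and leaving out libraries.

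The chains, the gene lists (enzymes, folding, processing, receptors, fibril-binding and basement membrane proteins, and markers of 10 cell types) and the tests were chosen with earlier results of these data known. All chains are accounted for. Of a list, counts are given. The plan was to name up to 4 called members of smallest p and, for markers, the 2 of highest level. It was not followed for every list, and many called members, above all markers, are not named. Other listed genes named were chosen after their values were seen. Of 44 chains, 35 had a RefSeq window. No protein sequences were used. One gene of the basement membrane list is not reported here, and the counts of that list are without it.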

Additional observations from a re-analysis of the deposited data

How the results depend on the processing

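The counts of chains that changed depended on the scale, with the cause not tested. In papain against control the deposited values gave 0 falls, and quantile normalization, rescaling without the 15 highest genes and median-of-ratios scaling gave 5 each. With no filter 1 chain (Col6a5) rose on either scale, and without papain library 2 and exosome library 3 there were 11 rises. The 5 scaled falls were 1 with a filter at 5 FPKM, which tests fewer chains, 2 with only the 2 groups in the fit, and 1 to 5 with 1 library left out. In exosomes against papain the 11 deposited rises were 1 with a filter at 5 FPKM, 7 with only the 2 groups, 1 under quantile normalization and under median-of-ratios scaling, 6 without the 15 highest genes, 20 after rescaling to a common sum, and 6 to 19 with 1 library left out. The 0 falls were 1 with no filter and 4 under quantile normalization and under median-of-ratios scaling. The scaled rise count of 1 was 0 to 1 with 1 library left out, and the 4 scaled falls were 2 with a filter at 5 FPKM, 2 with only the 2 groups and 2 to 4 with 1 library left out. In exosomes against control the 19 deposited rises were 4 with a filter at 5 FPKM, 31 after rescaling to a common sum, 7 to 25 with 1 library left out, and 0 under quantile normalization, without the 15 highest genes and under median-of-ratios scaling. The 0 falls were 8 and 6 under quantile normalization and median-of-ratios scaling, and the 6 scaled falls were 3 with a filter at 5 FPKM and 2 to 6 with 1 library left out. Without papain library 2 and exosome library 3 this comparison gave 27 deposited rises and 6 scaled falls. A pseudocount of 0.1 and a fit with no trend left every count within 1.5 times. Shares of all genes are not given beside the counts of these settings. The counts are therefore not read as changes particular to the chains.

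The replicate numbers did not pair the libraries. Deviations from the group means correlated at -0.31 to 0.14 between libraries of the same number and at -0.41 to 0.40 between libraries of different numbers. With the replicate number as a block, the scaled falls in exosomes against papain were 2 in place of 4. The deposited rises were 11 and 18 in the exosome comparisons with papain and control, and the other counts stayed within 1.5 times. Without the shares of all genes in the block fit, these counts are not read as particular to the chains.

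Signs are given below where they turned and the change was called in at least 1 of the settings compared. Changes that turned sign without a call are not listed. Median-of-ratios scaling in place of the deposited values gave log2 changes of the opposite sign in exosomes against papain of Col17a1 -0.27, Col5a2 -0.64, Col9a3 -0.022, Col11a1 -0.50, Col4a1 -0.12, Col8a1 -0.36, P4ha2 -0.28, Dcn -0.41, Sec23a -0.33, Itgb1 -0.44, Ppib -0.58, Fkbp14 -0.28. The same setting gave them in exosomes against control of Col6a1 -0.41, Col18a1 -0.015, Col6a2 -0.22, Col14a1 -0.36, Col17a1 -0.19, Col3a1 -0.44, Col5a1 -0.021, Col9a3 -0.11, Col11a1 -0.51, Col9a2 -0.25, Col4a5 -0.14, Col4a1 -0.45, Col4a2 -0.34, Col12a1 -0.19, Col16a1 -0.026, Col27a1 -0.00092, Col6a3 -0.0019, Col8a2 -0.092, Col13a1 -0.047, Col8a1 -0.15, Nid1 -0.46, P4ha2 -0.093, Sec23a -0.29, Itgb1 -0.25, P3h1 -0.45, Pcolce -0.046, Ppib -0.56, Crtap -0.42. Quantile normalization gave log2 changes of the opposite sign in exosomes against papain of Col17a1 -0.29, Col5a2 -0.57, Col9a3 -0.051, Col11a1 -0.52, Col4a1 -0.15, Col6a3 -0.019, Col8a1 -0.39, P4ha2 -0.32, Sec23a -0.35, Itgb1 -0.26, Fkbp14 -0.30. The same setting gave them in exosomes against control of Col6a1 -0.40, Col18a1 -0.055, Col26a1 -0.0088, Col6a2 -0.23, Col14a1 -0.39, Col17a1 -0.22, Col7a1 -0.73, Col9a1 -0.33, Col5a1 -0.042, Col9a3 -0.14, Col11a1 -0.53, Col24a1 -0.10, Col9a2 -0.29, Col4a5 -0.18, Col4a1 -0.48, Col4a2 -0.38, Col12a1 -0.22, Col16a1 -0.044, Col27a1 -0.034, Col6a3 -0.037, Col8a2 -0.087, Col13a1 -0.083, Col23a1 -0.37, Col8a1 -0.19, Col22a1 -0.045, Nid1 -0.49, P4ha2 -0.13, Sec23a -0.32, Itgb1 -0.078, P3h1 -0.48, Ppib -0.26, Crtap -0.44. Rescaling without the 15 highest genes gave log2 changes of the opposite sign in exosomes against control of Col17a1 -0.033, Col9a2 -0.065, Col4a5 -0.0064, Col4a2 -0.14, Nid1 -0.28, Sec23a -0.078, Ppib -0.30. No called change of a chain turned sign when 1 library was left out, with 1489 values on the same side of the threshold, 121 that lost a call and 37 that gained one. The 18 within-library ratios were judged by whether a shift stayed under the larger SD of the 2 groups. Leaving out 1 of 3 libraries cannot shift a mean by that much, so this does not show that they were stable. Each group has 3 libraries, and the depth is unknown, so no counting error can be given for the low chains.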

Other observations

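The summed level of all collagen chains varied widely within groups. It was 830, 673 and 286 FPKM in the exosome libraries, 604, 305 and 380 FPKM in the papain libraries and 293, 427 and 428 FPKM in the controls. After scaling the sums were 476, 422 and 243 in exosomes, 565, 429 and 392 in papain and 383, 560 and 560 in control. All groups overlapped on both scales.

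Other marker lists varied as follows. The 8 olfactory sensory neuron markers had scaled sums of 507 to 920 in exosomes, 244 to 444 in papain and 578 to 718 in control. After scaling, 7 of the 8 rose in exosomes against papain and 4 fell in papain against control, with no fall in the first and no rise in the second. Over all genes 13.4% rose in the first and 4.15% fell in the second. In exosomes against control none passed the test after scaling, while on the deposited values 7 rose, where 84.3% of all genes did. On those values all 8 rose in exosomes against papain, where 63% of all genes did, and none passed in papain against control. The 8 nasal gland markers, mostly secreted proteins among the most abundant of the tissue, had scaled sums of 49068 to 124057 in exosomes, 134528 to 257805 in papain and 259774 to 294716 in control. Of them 7 fell in exosomes against control, 3 in exosomes against papain and 1 in papain against control after scaling, and none rose. Over all genes 15.6, 16.2 and 4.15% fell. With the values as deposited, 6, 3 and 2 fell in these comparisons and none rose, where 0.526, 0.73 and 0.518% of all genes fell. The 8 smooth muscle and pericyte markers had scaled sums of 147 to 171 in exosomes, 175 to 198 in papain and 118 to 167 in control, and 1 rose in each comparison while 1 fell in each comparison with control. Over all genes 12.3% rose and 15.6% fell in exosomes against control after scaling, 13.4% rose in exosomes against papain, and 5.77% rose and 4.15% fell in papain against control. On the deposited values all 8 markers rose in exosomes against control, 4 in exosomes against papain and 1 in papain against control, with no fall. Over all genes 84.3, 63 and 3.01% rose on those values. The Schwann cell and olfactory ensheathing glia markers had scaled sums of 35.3 to 40.3 in exosomes, 45.5 to 62.6 in papain and 55.5 to 66.0 in control, and 3 of 6 tested fell in exosomes against control. Over all genes 15.6% fell there. As deposited, 4 of 7 of these markers rose in that comparison and none fell, where 84.3% of all genes rose. Skeletal muscle markers ranged from 6.53 to 7.28 in exosomes, 2.56 to 35.2 in papain and 4.28 to 49.8 in control after scaling, with no call among 5 tested on either scale and overlap of all groups. None of these lists had a marker at 0 in all libraries, and their part in the levels of the chains was not tested.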
